A study of Arabidopsis thaliana with 12 samples.

Results

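DI21 (AT4G15910, a drought-induced gene) and DRT101 (AT5G18070, a DNA damage repair and toleration gene) are stress-named genes of Arabidopsis thaliana. Their mean signals differed in opposite directions between a group given staurosporine and a group in water. They were taken from the probes that the platform annotation pairs with exactly 1 gene, and each has 1 such probe among 692, which stand for 691 genes, on an array of 3439 probes. They were chosen by their pStau minus H2O differences, 1.19 for DI21 and -2.80 for DRT101 on the log2 scale. Those differences are therefore given as a description, with no test.

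Both groups are wild-type plants of the ecotype Columbia 0, and total RNA was measured. The group called pStau had 4 h of water followed by 4 h with staurosporine, an inhibitor of many protein kinases, at a labelled 25 mM and pH 5.5. The unit of this dose may be an error in the labels. The group called H2O had water for all 8 h. The labels give no pH for H2O, so effects of staurosporine and of pH cannot be told apart here. Each group has 6 arrays, numbered 1 to 6 in the titles. The labels name neither a tissue nor separate plants, so the spread between arrays may be technical. In bulk RNA, fewer cells expressing a gene and less RNA per cell cannot be told apart.

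DI21 belongs to the late embryogenesis abundant (LEA) proteins, small hydrophilic proteins that build up in drying seeds and in vegetative tissue short of water. Many LEA genes are switched on by abscisic acid, the plant hormone of water deficit, whose signal runs through receptors, protein phosphatases and SnRK2 protein kinases to transcription factors. DRT101 got its name from a screen in Escherichia coli for plant sequences that partly restored tolerance of DNA damage to repair-deficient bacteria. Its sequence places it with the phosphoglucomutases, and the enzyme acts as a phosphoacetylglucosamine mutase on the route to UDP-GlcNAc, the sugar donor for N-glycans and for O-GlcNAc on proteins.

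The deposited intensities run from 0 to 100 on a scale that the labels do not state. Array medians were 0.169 to 0.392 in pStau and 0.405 to 0.485 in H2O, and 12.3% to 17.3% of probes were listed at 0 on pStau arrays against 11.5% to 13.1% on H2O arrays. The arrays were therefore quantile normalized, and log2 levels below are on that normalized scale, with zeros set to a floor of -5.90. Consecutive arrays of a group (1 and 2, 3 and 4, 5 and 6) were alike and are called a set here. Of 3256 probes tested with limma across all probes, 35.3% were called at an adjusted p of 0.05 (536 or 16.5% higher and 612 or 18.8% lower in pStau). The unnormalized values gave 183 higher and 1519 lower, a scaling of every array to equal totals 180 and 1628, and a division of every array by its median 866 and 517. All of these fits count consecutive arrays as independent. On the normalized values, 523 probes were called with each set as a random block and 3 with the arrays of each set averaged.

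DI21 was high on every pStau array and on the first set of H2O arrays, and lower on the other H2O arrays. Its deposited intensities in pStau were 1.25, 1.12, 1.29, 1.12, 1.60 and 1.61 on arrays 1 to 6. In H2O they were 1.33, 1.42, 0.505, 0.453, 0.434 and 0.517. The pStau values thus stayed within a narrow band, H2O arrays 1 and 2 lay inside that band, and H2O arrays 3 to 6 lay below it, so the groups overlap. On the normalized log2 scale DI21 averaged 0.40 ± 0.23 in pStau and -0.79 ± 0.88 in H2O (SD, n = 6 each), a difference of 1.19 ± 0.37 (SE) or 2.29-fold. This SE counts the 6 arrays of a group as independent, although the arrays of a set were alike, so it may be too small.

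DRT101 was lower on every pStau array than on any H2O array. Its deposited intensities in pStau were 0.447, 0.434, 0.0749, 0.0642, 0.0580 and 0 on arrays 1 to 6. In H2O they were 0.923, 0.901, 1.17, 0.997, 1.26 and 1.26. The first set of pStau arrays kept a clear signal, the next 3 arrays were close to 0 and array 6 was listed at 0. The H2O values ran from 0.901 to 1.26 and were lowest on arrays 1 and 2. The groups do not overlap, as was the case for 17.4% of tested probes (9.28% with pStau lower), and nothing is read from this, since the same contrast chose the gene. On the normalized log2 scale DRT101 averaged -2.81 ± 1.69 in pStau and -0.01 ± 0.33 in H2O (SD, n = 6 each), a difference of -2.80 ± 0.70 (SE). Here too the SE counts the arrays of a set as independent and may be too small. pStau array 6 lies at the floor, and without it the difference was -2.14, so the size depends on that array and on the floor.

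**Figure D1:**
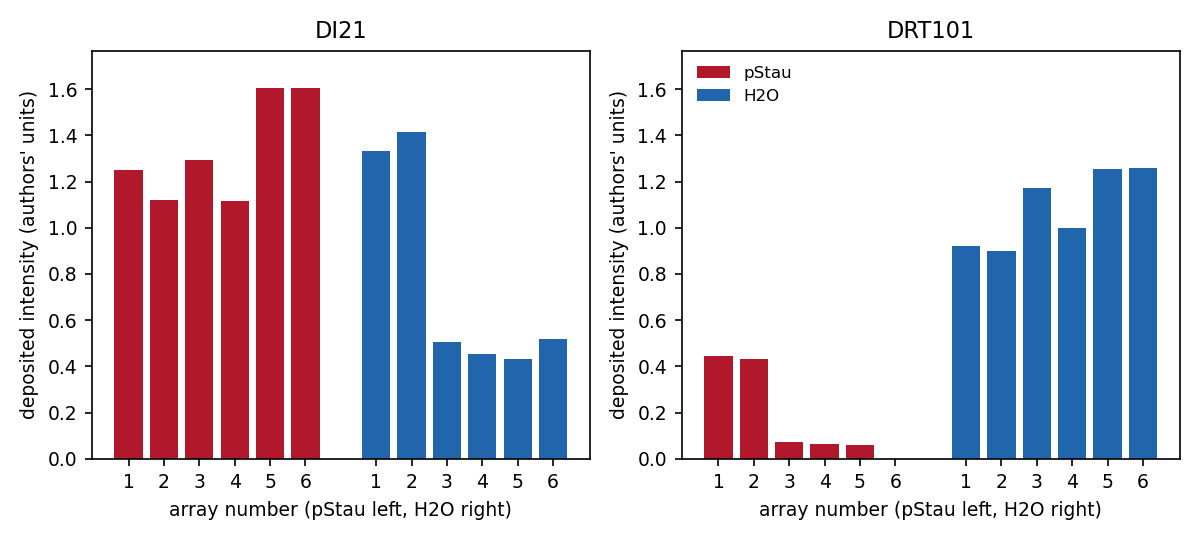
Deposited intensity (in the authors' units, linear axis from 0) of DI21 and DRT101 on each array, with pStau arrays 1 to 6 on the left and H2O arrays 1 to 6 on the right of each panel. For DI21 the H2O arrays 1 and 2, at 1.33 and 1.42, stand with the pStau arrays, and for DRT101 every pStau bar is lower than every H2O bar, with array 6 at 0.

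The place of each probe among all probes of the same array does not depend on how arrays are scaled to each other. DI21 lay at percentiles 84.5 to 91.3 on the pStau arrays (median 90.4) and at 46.0 to 88.9 on the H2O arrays (median 56.7). Within H2O, the first set was at 87.5 and 88.9, and the other 4 arrays were between 46.0 and 59.1. The position of DI21 was therefore much the same on all pStau arrays and split in H2O. DRT101 lay at percentiles 22.7 to 54.2 on pStau arrays 1 to 5 and among the probes listed at 0 on pStau array 6, against 75.7 to 88.0 on the H2O arrays. DRT101 was among the brighter probes on all 6 H2O arrays and in the middle or below on the pStau arrays. These percentiles order signals of different probes, which need not follow the order of their transcript levels.

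**Figure D2:**
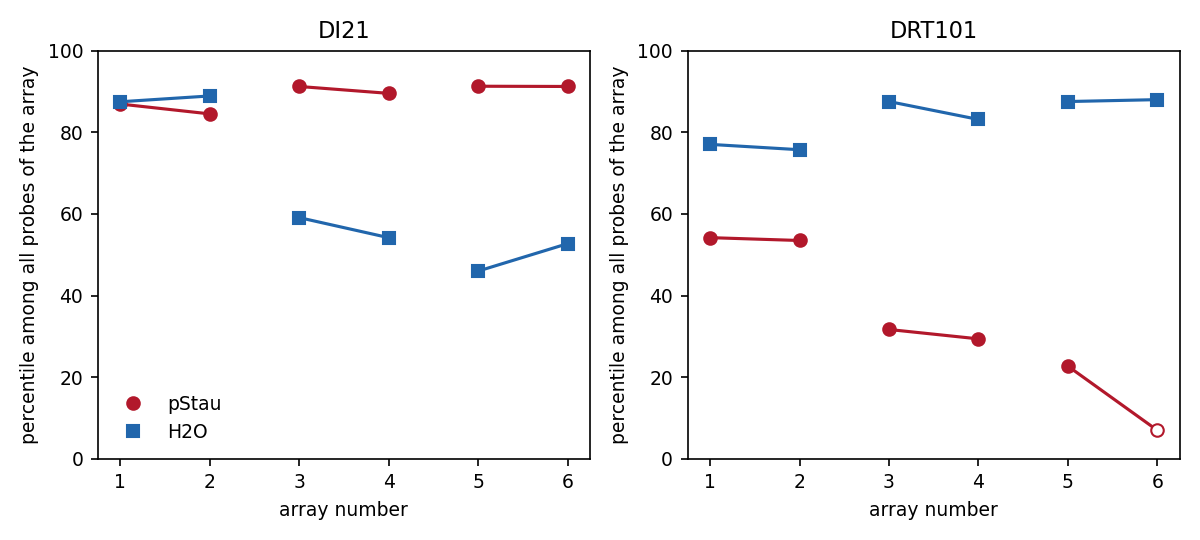
Percentile of DI21 and DRT101 among all probes of each array (vertical axis, 0 to 100) by array number, with circles for pStau, squares for H2O, lines joining consecutive arrays and an open circle for the array where DRT101 was listed at 0. DI21 stays at 84.5 to 91.3 in pStau and splits in H2O, while DRT101 is at 75.7 to 88.0 in H2O and lower on every pStau array.

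Taken set by set, the DI21 difference on the log2 scale was -0.19 for arrays 1 and 2. It was 1.69 for arrays 3 and 4 and 2.08 for arrays 5 and 6. In the first set 32.6% of tested probes had a lower difference than DI21, against 98.1% and 98.2% in the other sets. These shares are a description, since the mean of the set differences is the difference that chose the gene. The order of the set means of DI21, from high to low, was pStau arrays 5 and 6 (0.60), pStau 3 and 4 (0.47), H2O 1 and 2 (0.32), pStau 1 and 2 (0.13), H2O 3 and 4 (-1.22) and H2O 5 and 6 (-1.48). Each step in that order was set against the larger of the gaps between the 2 arrays of either set. This is a description and no test. The 2 arrays of a set may be technical repeats, so their gap need not measure the spread between sets. For pStau 5 and 6 and pStau 3 and 4 the step (0.13) was smaller than the gap (0.19). The same held for pStau 3 and 4 and H2O 1 and 2 (step 0.15, gap 0.19). It also held for H2O 3 and 4 and H2O 5 and 6 (step 0.26, gap 0.27). The step of 0.19 between pStau 1 and 2 and H2O 1 and 2 is little more than its gap of 0.15, and the wide step is that of 1.35 between pStau 1 and 2 and H2O 3 and 4.

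The spread of DI21 lay in H2O. Its set means ranged over 1.80 in H2O, wider than in 95.6% of tested probes, and over 0.47 in pStau, wider than in 30.6%. Between consecutive arrays DI21 differed by at most 0.19 in pStau and 0.27 in H2O. The difference between groups without arrays 1 and 2 was 1.97, a fold over 1.5 times that of all arrays. The labels give no reason for the level of H2O arrays 1 and 2, and a cause was not tested.

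For DRT101 the difference was -0.91 in the set of arrays 1 and 2. It was -2.72 for arrays 3 and 4 and -4.78 for arrays 5 and 6. The last value rests partly on pStau array 6 at the floor. Array 5 alone gave -3.35 against H2O array 5. DRT101 was thus lower in pStau in every set, as were 27.9% of tested probes, but by unequal amounts. The order of its set means, from high to low, was H2O arrays 5 and 6 (0.28), H2O 3 and 4 (0.10), H2O 1 and 2 (-0.40), pStau 1 and 2 (-1.31), pStau 3 and 4 (-2.62) and pStau 5 and 6 (-4.50). For H2O 5 and 6 and H2O 3 and 4 the step (0.18) was smaller than the gap (0.29). The same held for pStau 3 and 4 and pStau 5 and 6 (step 1.88, gap 2.81), the last gap resting on pStau array 6 at the floor. The other 3 steps exceed their gaps. Among them is the step between the groups, and nothing is read from it, since that contrast chose the gene.

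Here the spread lay in pStau. The set means of DRT101 ranged over 3.18 in pStau, wider than in 97.1% of tested probes, and over 0.68 in H2O, wider than in 65.9%. The pStau range and its share rest partly on pStau array 6 at the floor. The pStau arrays 3 to 6, where DRT101 was close to 0, also had the lowest medians, 0.169 to 0.228, and the most probes at 0, 13.7% to 17.3%. The part of that lower array signal in the low DRT101 values was not tested. In the first set, where the pStau medians were 0.392 and 0.392 against 0.470 and 0.475 in H2O, the mean deposited intensity of DRT101 in pStau was 0.483 of that in H2O.

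**Figure D3:**
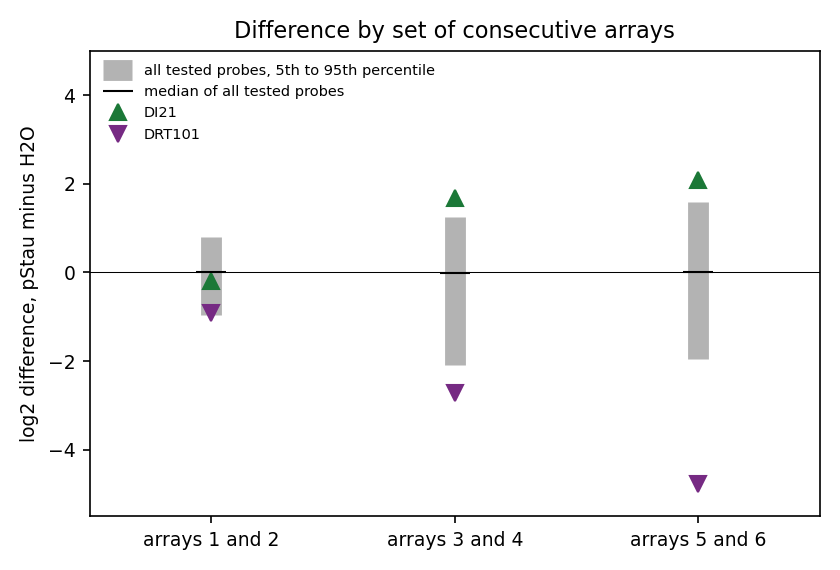
Log2 difference, pStau minus H2O, of DI21 (upward triangles) and DRT101 (downward triangles) in the 3 sets of consecutive arrays, with grey bars for the 5th to 95th percentile and a dash for the median of 3256 tested probes. DI21 lies inside the grey bar at -0.19 in arrays 1 and 2 and above it in the other sets, and DRT101 lies just inside the bar at -0.91 in arrays 1 and 2 and below it in the other sets.

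The scaling between arrays changed the size of both differences and neither direction. DI21 was higher in pStau by 0.96 on the log2 scale in the unnormalized values, 0.94 with totals made equal, 1.78 after division by array medians and 1.23 after cyclic loess. The median of all probes was -0.80 in the unnormalized values and -0.82 with totals made equal, and relative to it DI21 stood at 1.76 in both. DRT101 was at -3.69, -3.71, -2.87 and -2.80 in the same 4 settings, and at -2.89 relative to the median of all probes in the first 2. Against all tested probes, 100 had a higher difference than DI21 and 21 a lower one than DRT101.

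Other genes of the pathways around DI21 and DRT101 were looked for through 4 lists holding 181 genes. These were LEA and dehydration-responsive genes, abscisic acid synthesis and signalling, DNA damage repair and tolerance, and UDP-GlcNAc synthesis with sugar phosphate mutases. Beside DI21 and DRT101, 1 gene of these lists has a probe of its own. It is DRT100 (AT3G12610), found in the same bacterial screen as DRT101, and it was listed at 0 on 6 of 6 pStau and 6 of 6 H2O arrays, so it could not be tested. No list gene beyond DI21 and DRT101 was thus tested under a single gene name. Of 26 genes in 5 lists of cell type markers and housekeeping genes, 0 had a probe of their own, so the tissue could not be checked through them.

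Among the probes paired with several genes, 2 were paired only with genes of the LEA list, and they are called here by their probe numbers, 615 and 3484. Both are paired with the same genes, so they are not independent of each other. Probe 615 rose in pStau, by 0.44 ± 0.15 on the log2 scale (SE, limma adjusted p = 0.0409, n = 6 per group), in a fit where 16.5% of probes were called higher. It did not pass when each set of arrays was a random block (adjusted p = 0.185) or was averaged (0.244), with a block on the replicate number (0.0798) or after cyclic loess (0.0656). Its difference was 0.05 in the unnormalized values (adjusted p = 0.809) and 0.03 once totals were made equal (adjusted p = 0.841). Removing 1 array ended the call for 10 of the 12 arrays, where the adjusted p reached 0.0866. Probe 3484 did not pass (0.65 ± 0.29, SE, limma adjusted p = 0.102, n = 6 per group), but passed when pStau array 1 was left out (adjusted p = 0.0334) or the whole first set was (0.00502).

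By set, the differences of probe 615 were -0.10, 0.59 and 0.82, and those of probe 3484 were -0.44, 0.73 and 1.68. As with DI21, the difference was below 0 in arrays 1 and 2 and above 0 in the other sets, an order of signs shown by 8.91% of tested probes. Deposited intensities of probe 615 ranged over 0.717 to 0.937 in pStau (median 0.790) and 0.657 to 1.08 in H2O (median 0.722), and those of probe 3484 over 0.319 to 0.588 (median 0.414) and 0.293 to 0.565 (median 0.441). For both probes the groups overlap as deposited.

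**Figure D4:**
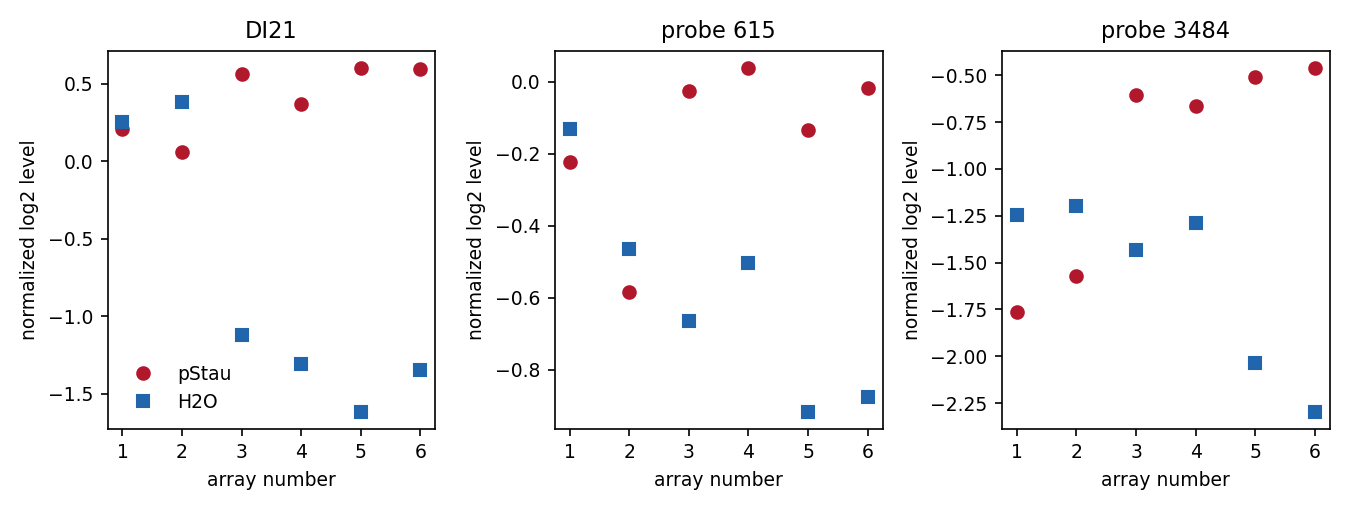
Normalized log2 level by array number for DI21 and for probes 615 and 3484, which are paired with several genes of the LEA list, with circles for pStau and squares for H2O and a vertical axis of its own for each panel. The differences in arrays 1 and 2 are -0.19, -0.10 and -0.44, and those in arrays 5 and 6 are 2.08, 0.82 and 1.68.

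Of the UDP-GlcNAc list, 2 probes were paired only with several genes of the list. Probe 647 ranged from 0 to 0.512 in pStau and from 0 to 0.551 in H2O and did not pass (log2 difference -0.20 ± 0.96, SE, limma adjusted p = 0.898, n = 6 per group). Its sign was turned by cyclic loess (0.046). Probe 1985 was listed at 0 on 3 pStau and 6 H2O arrays and reached at most 0.00693, which is under the floor, so it carries no difference.

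The genes whose levels were most like those of DI21 were sought among 578 other probes with 1 gene, by Pearson's r of the log2 level over the 12 arrays. This likeness is a description, since arrays of a set share their signal and the difference between groups enters it. CML41, a calmodulin-like protein, came first (r = 0.95, Spearman's rho 0.87). CML41 averaged 0.16 ± 0.16 in pStau and -0.27 ± 0.32 in H2O (SD, n = 6 each), and its set differences were -0.11, 0.65 and 0.75. AT2G38070 (r = 0.94), AT1G17160, a ribokinase of the pfkB carbohydrate kinase family (0.92), AT4G24930, a thylakoid lumen protein (0.92), and ATSPS4F, a sucrose-phosphate synthase (0.91), followed. The set difference in arrays 1 and 2 was between -0.11 and 0.04 in these 5 genes and between 0.60 and 1.56 in arrays 5 and 6.

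When the group means were removed first, AT4G13550, a lipase, followed DI21 most closely (r = 0.98 over 12 arrays, rho 0.96). Its deposited intensities in pStau were 1.29, 1.08, 1.50, 1.50, 1.85 and 1.62 on arrays 1 to 6. In H2O they were 2.76, 2.71, 0.817, 0.808, 0.656 and 0.624. AT4G13550 thus was far higher on H2O arrays 1 and 2 than on the other H2O arrays, as DI21 was, and on those arrays it lay above pStau, with set differences of -1.29, 1.09 and 1.65. CML41 (0.91) and AT1G17160 (0.87) came next.

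For DRT101 the most alike gene was SRX, the sulfiredoxin that repairs overoxidised peroxiredoxins (r = 0.94, rho 0.68 over 12 arrays). The deposited intensities of SRX in pStau were 0.247, 0.304, 0.0511, 0.0420, 0.0386 and 0, and in H2O they were between 0.323 and 0.378. As with DRT101, the signal of SRX was clear on the first set of pStau arrays, close to 0 on the next 3 and listed at 0 on array 6, but its difference in the first set was -0.06. AT1G61990, of the mTERF family, which acts in organelle gene expression, came next (r = 0.94, rho 0.99). AT2G21960 (r = 0.94, rho 0.85), AT4G39570, a kelch repeat protein (0.93, rho 0.62), and AT2G20920 (0.92, rho 0.94) followed. The differences, in order from AT1G61990 to AT2G20920, were -1.26, -0.68, -1.29 and -0.996. With the group means removed, SRX was the closest (r = 0.97, rho 0.66). Next were iqd32, an IQ-domain protein (r = 0.90, rho 0.79), and AT4G33500, a protein phosphatase of type 2C (0.90, rho 0.69). DRT101, SRX and iqd32 were all listed at 0 on pStau array 6 and set to the floor, and this shared point enters their r. AT4G33500 differed by -1.31, -1.49 and -1.86 in the 3 sets, a more even course than that of DRT101. Between DI21 and DRT101 themselves r was -0.71 over the 12 arrays and -0.35 with the group means removed.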

How the data were processed

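Total RNA was measured on 6 pStau and 6 H2O arrays, each listed as 1 sample. The labels do not say whether consecutive arrays hold separate RNA or repeat measurements of the same RNA. The authors deposited 1 table of intensity values, taken as linear; their background correction, scaling and centring are not given in the sources used here. Of 3439 probes, 692 are paired with 1 gene, 870 with several and 1877 with none by the platform annotation, which can be old. Names were updated through the RefSeq gene table of TAIR10.1, which matched 690 of the 692, and probes with several genes were given no gene name.

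Array medians differed up to 2.87-fold, so positive values were quantile normalized. The 1st percentile of the normalized values, 0.0167, served as a floor for zeros and anything dimmer, and log2 was then taken. This left out 183 probes that were 0 throughout. Groups were compared with limma 3.58.1 in R 4.3.3, two-sided and with no block, at a threshold of 0.05 on p-values adjusted over 3256 probes by Benjamini-Hochberg. The fit was tested on simulated data in which all arrays were drawn independently. That test lacks the likeness of consecutive arrays, so it cannot show the error rate of the calls made here. The number of arrays limits the precision.

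The members, lists and alternatives were chosen with earlier results of these data known. Named genes were the members, all measured list genes, and by Pearson's r the 5 probes with 1 gene most like each member in level and the 3 most like it in deviation from the group means, among those above the floor on at least 9 arrays. Probes with several genes were added after seeing which list genes were measured. Same-numbered arrays deviated together from their group means (r was 0.31 to 0.54 for the 6 numbers, against a stated minimum of 0.1). The labels do not say why. Likeness across different numbers of a set was not computed, so pairing by number cannot be told from a likeness of whole sets. The main fit ignored any such pairing, and a block on the replicate number was an alternative setting. Other normalizations, floors and spread estimates, the replicate block, consecutive arrays averaged or as a random block, and leaving out arrays were tried. Plots were made with matplotlib 3.10.9 (Python 3.11.15).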

Additional observations from a re-analysis of the deposited data

How the results depend on the processing

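The direction of the DI21 and DRT101 differences, by which they were chosen, held in all 26 alternative settings. The blocks, the averaging of sets, the other spread estimate and the removal of dim probes leave any difference unchanged, so they could not turn it. No setting used arrays 1 and 2 alone, where the DI21 difference was -0.19. Without arrays 1 and 2 of both groups DI21 was 1.97, a move beyond the SD pooled over both groups (0.64). The move is within the SD of the H2O arrays (0.88), but the H2O arrays left out widen both SDs. Without single arrays DI21 was between 1.05 and 1.45, and DRT101 between -3.10 and -2.14. DRT101 was -2.47 with the floor raised to the 5th percentile and -2.64 when zeros were ranked. Leaving out arrays 1 and 2, 3 and 4, or 5 and 6 gave it -3.77, -2.74 and -1.82. The count of 1148 called probes was 1279 with the replicate block, which changed no call of a list probe but that of probe 615, and 969 to 1248 without single arrays. It was 1808 with arrays scaled to the same total, 523 with consecutive arrays as a random block, 3 with them averaged (875 at an unadjusted p under 0.05), 483 without arrays 3 and 4 and 506 without arrays 5 and 6 of both groups, against 1350 without arrays 1 and 2; the cause was not tested. Probe 615 kept its direction in all 26 settings and lost its call in 18. Probe 647 changed sign with cyclic loess (0.046) and without arrays 5 and 6 (0.29), and ranged from -0.84 to 0.39 without single arrays, with H2O array 4 (0.13) and pStau array 3 (0.39) each turning it. The count of called stress list genes could not be computed, since none was tested.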
